A study of Mus musculus with 2 samples.

Results

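The glycosyltransferases described here build the sugar chains of glycoproteins, glycolipids and proteoglycans, and were compared between classically activated mouse macrophages with and without the gene Ninj1. The members are all genes whose symbol begins with B3gnt, B3galt, B4galt, B4galnt, Galnt, St3gal, St6gal, St8sia, Fut, Mgat or Gcnt followed by a digit. There were 63 of them among 17270 genes, of which 51 averaged at least 10 normalized counts over the 4 columns of the deposited table. St8sia5 (10.2) and B4galt2 (12.8) were the nearest above that mean, and Gcnt7 (8.87) and B3galt2 (7.56) the nearest below it. Bulk messenger RNA was sequenced from marrow cells of Ninj1+/+ and Ninj1-/- mice aged 6 weeks, grown into macrophages over 7 days with the growth factor M-CSF. Cells of both genotypes then received 500 ng/ml of lipopolysaccharide together with 20 ng/ml of interferon-gamma, so every column is from stimulated cells. The protein missing in the knockout, ninjurin 1, sits in the plasma membrane, where it mediates adhesion and the rupture of dying cells. GEO registers a single sample per genotype while the table has 2 columns for each, and whether a genotype's columns are different mice, different cultures or repeat libraries of the same RNA is not said.

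Glycan chains are assembled in the endoplasmic reticulum and Golgi by enzymes that each add 1 kind of sugar to a particular acceptor. N-glycans are trimmed and then branched by the Mgat enzymes, mucin-type O-glycans are started by the Galnt enzymes on serine or threonine, and glycosphingolipids grow from lactosylceramide. Galactose and N-acetylglucosamine lengthen these chains, and sialic acid and fucose cap them. In macrophages sialic acid is what Siglecs bind, selectins bind chains that carry both caps, and galectins bind the galactose-containing chain itself.

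The 4 columns held 46798381 to 62684262 reads assigned to genes. Ninj1 stood at 28849.6 and 31158 normalized counts in the wild-type columns and 3519 and 4086 in the knockout columns, 12.7% of the wild-type mean, the direction that the labels give. All 8 macrophage markers were present, with a summed level of 968675 to 1051802 normalized counts in wild type and 1042272 to 1060529.7 in the knockout, although the integrin gene Itgam (log2 ratio -0.37) was called lower in the knockout. Some stromal and dendritic cell markers differed between the genotypes. The 14 stromal markers summed to 2047 and 2113 in wild type against 1499 and 1581 in the knockout, with 2 of 11 tested called lower, both of them collagen chains. Col1a1 stood at 149 and 136 in wild type and 2.52 and 3.02 in the knockout. Col1a2, Col3a1 and Postn were present in both wild-type columns and at 0 in both knockout columns, while Pdgfra, Cxcl12 and Thy1 were at 0 in both knockout columns and in 1 wild-type column. Lum (log2 ratio 0.19) and Tagln (0.01) were not called. The 8 dendritic cell markers summed to 8999 and 9801 against 13499 and 13974, most of it from Xcr1 and Ccr7. These were the 2 of 4 tested called higher (log2 ratios 0.51 and 0.64). Clec9a (0.18) and Itgae (0.02) were not called. Flt3 (14.6 and 11.3 against 2.52 and 9.07) and Zbtb46 (8.11 and 5.66 against 0 and 18.1) were too scarce to test, and Siglech and Cd209a were at 0 throughout. No tested neutrophil, B cell, T and NK cell, mast cell or endothelial marker was called. Fewer cells of a type and less RNA per cell cannot be told apart in bulk RNA, and the part of these cell types in the results below was not tested.

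Most glycosyltransferase transcripts did not differ by the test. In the knockout columns B3gnt5, the enzyme that starts lacto-series glycolipids, rose 2.11-fold and Galnt7, a polypeptide GalNAc-transferase, rose 1.28-fold, while a second GalNAc-transferase, Galnt6, fell 1.33-fold. The test was limma on log2(normalized count + 1), fitted over the 12872 genes that reached 20 reads in 1 or more columns, with Benjamini-Hochberg adjustment and calls at an adjusted p below 0.05. Of the 63 members 47 reached that read minimum, of which 2 were called higher (all genes: 1.67%), 1 lower (all genes: 1.24%) and 44 in neither direction. The 3 calls are 6.38% of the 47, where 2.91% of all genes tested were called. Because a gene that reached the minimum only in its higher genotype tends to differ, these shares describe the measured members and no more. Both knockout columns lay outside the range of the wild-type columns for 24 of the 47, with 9 above and 15 below, which is 51.1% beside 51.1% of all genes. The median log2 ratio, knockout minus wild type, was -0.09 over the 47 members, with 14 ratios above 0 and 33 below, against -0.00341 over all genes tested. An unadjusted p under 0.05 was found for 23.4% of the 47 and 19.8% of all genes tested, the background for the unadjusted counts given below. DESeq2's filter on low counts gave 24 of the 47 an adjusted p, so it could call only those. Because the columns may be technical repeats, every p-value measures no more than how far they spread. A fold on this scale understates the change of scarce genes.

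**Figure D1:**
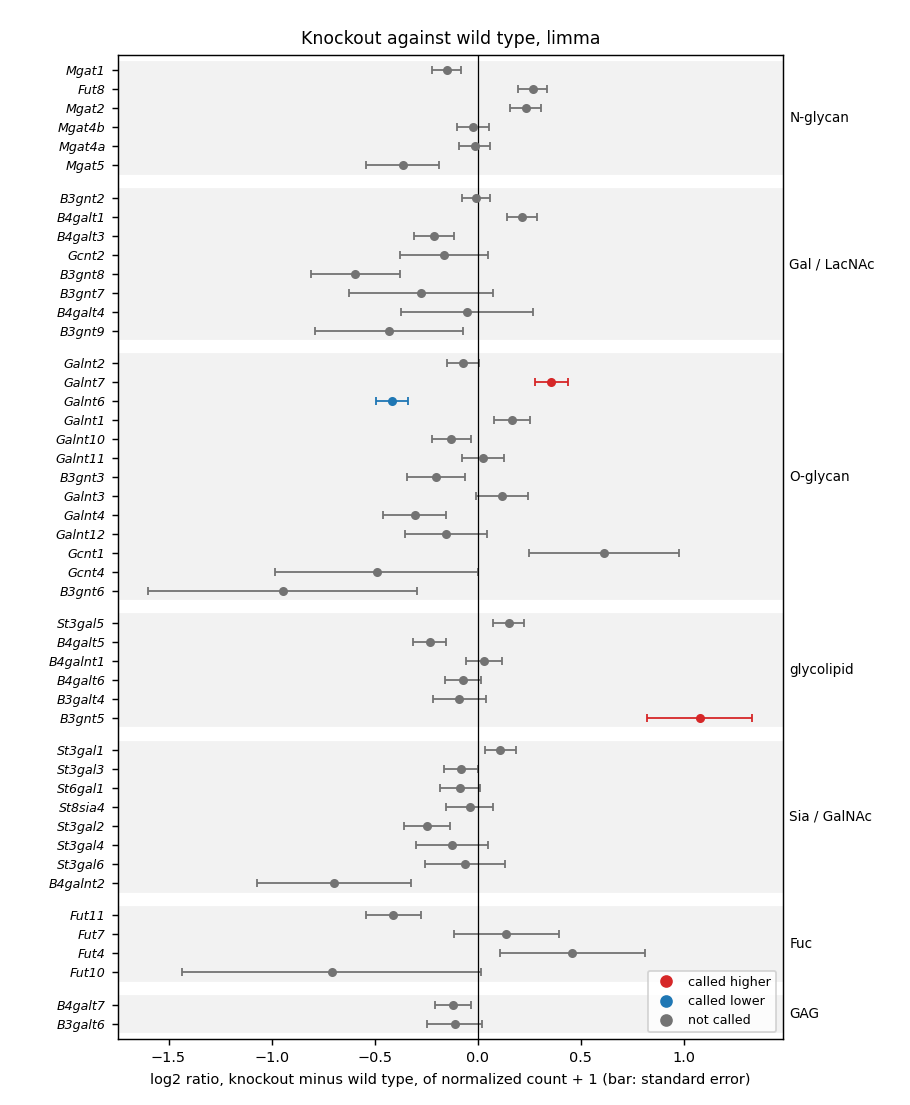
Log2 ratios, knockout minus wild type, of normalized count + 1 for the 47 tested glycosyltransferases, grouped by the kind of chain or step and ordered by mean level within a group. Points are limma estimates and bars their standard errors; B3gnt5 and Galnt7 are called higher, Galnt6 is called lower, and bars widen towards the scarce genes of each group.

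The DNA just upstream of the 3 called genes is printed to show what stands at the start of the transcripts that changed. Each run is the 250 bases before a RefSeq transcript start (assembly GRCm38.p6), written along the gene, and for Galnt6 the more distal of its 2 listed starts was taken. The B3gnt5 start used lies inside the annotated gene, which begins at 19760192, so the end of that run overlaps another annotated transcript. Capitals mark matches, on either strand, to motifs of factors that act in stimulated macrophages: the kappaB consensus, GAS (TTCNNNGAA), ISRE (GAAA, any 2 bases, GAAA), AP-1 (TGANTCA) and PU.1 (GAGGAA).
B3gnt5, chr16:19759984-19760233, plus strand: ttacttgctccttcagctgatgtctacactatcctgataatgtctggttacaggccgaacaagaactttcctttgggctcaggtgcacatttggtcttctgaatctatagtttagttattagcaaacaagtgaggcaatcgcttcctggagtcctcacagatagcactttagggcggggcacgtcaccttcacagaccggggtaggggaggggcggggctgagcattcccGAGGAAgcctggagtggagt
Galnt7, chr8:57653056-57653305, minus strand: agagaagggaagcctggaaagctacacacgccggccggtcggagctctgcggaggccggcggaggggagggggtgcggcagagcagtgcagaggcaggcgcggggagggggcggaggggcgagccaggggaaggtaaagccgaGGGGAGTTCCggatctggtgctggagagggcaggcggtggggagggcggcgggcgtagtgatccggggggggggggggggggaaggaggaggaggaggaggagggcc
Galnt6, chr15:100729377-100729626, minus strand: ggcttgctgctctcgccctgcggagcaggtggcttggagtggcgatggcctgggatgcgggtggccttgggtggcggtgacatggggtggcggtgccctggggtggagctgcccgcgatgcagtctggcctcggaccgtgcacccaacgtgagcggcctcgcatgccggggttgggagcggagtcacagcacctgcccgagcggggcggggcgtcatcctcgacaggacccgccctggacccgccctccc
The B3gnt5 stretch held 1 PU.1 match, which began 20 bases before the start, and the Galnt7 stretch held 1 kappaB match, which began 107 bases before it. No match overlapped another. The letters of the 5 motifs were not in the Galnt6 stretch shown, and its other listed start had 1 PU.1 match, 173 bases before it. Among the 32851 listed starts of all genes, the same window held a PU.1 match in 23.3%, a kappaB match in 7.25%, GAS in 7.02%, AP-1 in 6.75% and ISRE in 2.98%. The GC content of the 3 stretches was 51.2%, 73.6% and 72.8%.

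Among the enzymes of N-glycan branching and core fucose, none of 6 tested was called by limma or edgeR, 2 had an unadjusted limma p under 0.05, and DESeq2 called 1, Fut8, of the 5 it gave an adjusted p. Fut8 (chromosome 12, 77237430 to 77475998, mm10), which adds the core fucose, stood at 7226 and 7249.9 normalized counts in the wild-type columns and 9101 and 8334 in the knockout columns. Both knockout columns were above both wild-type columns, by a log2 ratio of 0.27 (SE 0.07; adjusted p = 0.0596 by limma), and DESeq2 gave an adjusted p of 0.0224. Mgat2, which opens the second antenna, stood at 6082 and 6602 normalized counts in the wild-type columns and 7760.0 and 7144 in the knockout columns, again without overlap (log2 ratio 0.23, SE 0.07, limma adjusted p = 0.109). Mgat1, the enzyme that acts before it, lay the other way at 9520.2 and 8671 normalized counts in the wild-type columns and 8064 and 8302 in the knockout columns, with a log2 ratio of -0.15 (SE 0.07; adjusted p = 0.261 by limma). The quotient of Mgat2 to Mgat1 normalized counts within a column was 0.639 and 0.761 in wild type and 0.962 and 0.861 in the knockout. It joins 2 uncalled genes whose ratios lie in opposite directions, which widens its gap, and it is given without a test. Of the branching enzymes that follow, the isoenzymes Mgat4a (-0.02) and Mgat4b (-0.02) had log2 ratios near 0, with standard errors of 0.08 each, and Mgat4b supplied 74.9% to 77.3% of their joint level per kilobase of exon. Mgat5, whose branch is a favoured galectin ligand, was scarcer and stood at 487 and 465 normalized counts in the wild-type columns and 443 and 308 in the knockout columns. Its knockout columns lay below wild type but apart from each other (log2 ratio -0.36, SE 0.18, limma adjusted p = 0.266).

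In the group that adds galactose and lactosamine repeats, none of 8 tested genes was called by limma or edgeR, nor by DESeq2 among the 3 it gave an adjusted p, and 3 had an unadjusted limma p under 0.05. B3gnt2, the main poly-N-acetyllactosamine synthase, made up 87.9% to 90.7% of the B3gnt family per kilobase of exon and was nearly level, at 15604 and 14870.3 normalized counts in the wild-type columns and 14833 and 15459.9 in the knockout columns. Its log2 ratio was -0.00849 with a 95% interval from -0.15 to 0.14. B4galt1, a broad galactosyltransferase of N-glycans, stood at 6398 and 6045 normalized counts in the wild-type columns and 7569.6 and 6875 in the knockout columns, with both knockout columns above (log2 ratio 0.21, SE 0.07, limma adjusted p = 0.132). B4galt3, which shares acceptors with it, stood at 4459 and 3645 normalized counts in the wild-type columns and 3260.3 and 3716 in the knockout columns, and the genotypes overlapped (log2 ratio -0.21, SE 0.10, limma adjusted p = 0.25). B3gnt8, which works together with B3gnt2, stood at 234 and 209 normalized counts in the wild-type columns and 159 and 134 in the knockout columns and lay below wild type in both knockout columns (log2 ratio -0.59, SE 0.22, limma adjusted p = 0.146). The other members tested, Gcnt2, B3gnt7, B3gnt9 and B4galt4, averaged below 200 normalized counts and had log2 ratios from -0.43 to -0.05 with adjusted p of at least 0.542 by limma. Gcnt2, which branches linear lactosamine chains, gave 206 and 208 normalized counts in the wild-type columns and 163 and 210.0 in the knockout columns.

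Mucin-type O-glycan genes, the group with the most members tested, held 2 of the 3 calls. Of 13 tested, Galnt7 rose, Galnt6 fell and 11 did not pass. Over all genes tested, limma called 1.67% higher and 1.24% lower. Galnt7 and Galnt6 were also called by edgeR and by DESeq2, which gave 6 of the 13 an adjusted p. Galnt7 prefers peptides that already carry GalNAc, and it lies at chromosome 8, 57523825 to 57653055. It stood at 5275 and 5087 normalized counts in the wild-type columns and 7145 and 6162 in the knockout columns. The lower knockout column exceeded the higher wild-type column, and the log2 ratio was 0.36 (SE 0.08; adjusted p = 0.0335 by limma). Galnt6 starts O-glycans on unmodified peptides, and it lies at chromosome 15, 100689915 to 100729376. It stood at 3851 and 3838 normalized counts in the wild-type columns and 2996 and 2769.8 in the knockout columns. Its wild-type columns were almost equal and both knockout columns were lower, with a log2 ratio of -0.42 (SE 0.08; adjusted p = 0.0155 by limma). Exons of Galnt6 share up to 189 bases with the antisense gene Galnt6os, and whether counting used strand is not stated, so reads within that stretch, out of 3871 exon bases of Galnt6, cannot be assigned to either gene.

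These calls did not all hold with a column left out. In those fits the calls over all genes moved as well, so the loss of a call is not particular to these 2 genes. Galnt7 was called without knockout column 2 (log2 ratio 0.46) but had an adjusted p of 0.143 without wild-type column 1, 0.0723 when wild-type column 2 was left out and 0.417 when knockout column 1 was, by limma. Galnt6 was called without wild-type column 2 and had an adjusted p of 0.108 without wild-type column 1, 0.0959 without knockout column 1 and 0.124 without knockout column 2, by limma. The log2 ratio ran from 0.25 to 0.46 for Galnt7 and from -0.47 to -0.36 for Galnt6 over these fits, without a change of sign.

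Within the 13 Galnt genes, Galnt2 held the largest share of the family level per kilobase of exon, 31.5% and 34.6% in wild type and 31.2% and 31.6% in the knockout. Galnt7 followed with 20.3% and 19.1% in wild type and 25.9% and 24.4% in the knockout. Galnt6 had 17.2% and 16.7% in wild type and 12.6% and 12.7% in the knockout. The quotient of Galnt7 to Galnt6 normalized counts within a column, which no scaling of the columns can alter, was 1.37 and 1.33 in wild type and 2.39 and 2.22 in the knockout. This pair was picked after its values were seen, so the quotient is given without a test. Galnt2 itself had a log2 ratio of -0.07 (SE 0.08; adjusted p = 0.658 by limma), and Galnt1, another broad initiating enzyme, had 0.16 with both knockout columns above wild type. Galnt4, like Galnt10 an enzyme that favours peptides already carrying GalNAc, lay below wild type in both knockout columns, at 565 and 461 normalized counts in the wild-type columns and 426 and 399 in the knockout columns (log2 ratio -0.31, SE 0.15, limma adjusted p = 0.279), as did Galnt10 (log2 ratio -0.13). Galnt3 had a ratio of 0.12, Galnt11 of 0.03 and Galnt12 of -0.16, each with an adjusted p of at least 0.645 by limma.

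**Figure D2:**
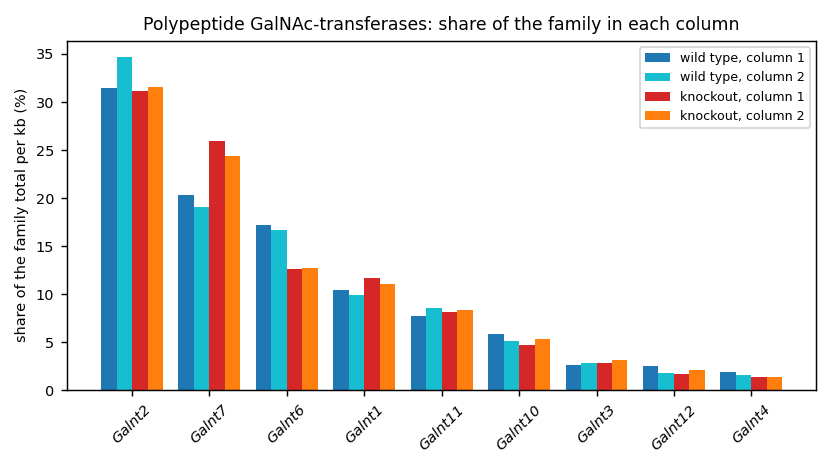
Share of each polypeptide GalNAc-transferase in the family's summed normalized counts per kilobase of exon, in percent, for the 9 Galnt genes with a mean of at least 10; each bar is 1 column. Galnt7 reaches 24.4% and 25.9% in the knockout columns against 19.1% and 20.3% in wild type, and Galnt6 moves the other way.

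Enzymes that extend the first GalNAc were scarcer. Gcnt1, the main core branching enzyme of leukocyte O-glycans, stood at 71.4 and 56.6 normalized counts in the wild-type columns and 69.3 and 138 in the knockout columns. Only knockout column 2 was high, and the log2 ratio of 0.61 had a standard error of 0.37 (limma adjusted p = 0.374). Its relative Gcnt4 had -0.49 and B3gnt3, which extends O-glycan cores, -0.20, neither called. B3gnt6, a core synthase known from gut epithelium, stood at 32.5 and 31.1 normalized counts in the wild-type columns and 27.7 and 9.07 in the knockout columns. Its log2 ratio of -0.95 rested on knockout column 2 and had a standard error of 0.65 (limma adjusted p = 0.453).

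St3gal5 and B4galt5, both glycosphingolipid enzymes, had the highest levels per kilobase of exon among the members, while the other 6 genes of the group ranked from 14 to 59 of 63. The group took 51.0% and 51.8% of the summed level per kilobase of all 63 genes in wild type and 52.9% and 52.1% in the knockout. St3gal5, the GM3 synthase that makes the simplest ganglioside, averaged 26632 normalized counts per kilobase over the columns, the highest of the 63, followed by B4galt5 with 5636. St3gal5 stood at 61155 and 63571 normalized counts in the wild-type columns and 71668 and 66728 in the knockout columns, with the knockout above wild type in both columns (log2 ratio 0.15, SE 0.07, limma adjusted p = 0.285). B4galt5, the main lactosylceramide synthase, stood at 27876 and 23488 normalized counts in the wild-type columns and 21278 and 22270.3 in the knockout columns and lay below wild type in both knockout columns (log2 ratio -0.23, SE 0.08, limma adjusted p = 0.132). Without wild-type column 2 limma called B4galt5 lower, at -0.36 (adjusted p = 0.0243), while without wild-type column 1 the ratio was -0.11. Its isoenzyme B4galt6 supplied 4.92% to 6.31% of their joint level per kilobase and had a ratio of -0.07. The enzymes that extend GM3 and its products, B4galnt1 (0.03) and B3galt4 (-0.09), were not called and their columns overlapped.

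B3gnt5, the lactotriaosylceramide synthase that diverts lactosylceramide into the lacto series, was the only tested member with an absolute log2 ratio of at least 1. The gene lies at chromosome 16, 19760192 to 19772760. It stood at 92.5 and 147 normalized counts in the wild-type columns and 219 and 278 in the knockout columns, from 57, 104, 174 and 184 recovered reads in the same order. Most low counts in the table were even, so both mates of a fragment may each count as a read, and the number of fragments may then be lower. The higher wild-type column was below the lower knockout column, and the log2 ratio was 1.08 (SE 0.26; adjusted p = 0.0404 by limma), with a 95% interval from 0.53 to 1.62. It is a scarce transcript, with 23.3 normalized counts per kilobase in wild type and 48.4 in the knockout; St3gal5, which competes for the same lactosylceramide, had 25248 and 28015. By edgeR the adjusted p was 0.048, and DESeq2's filter on low counts left it without one. The limma call was kept without wild-type column 2 (log2 ratio 1.41) and ended when wild-type column 1 was left out (0.74, adjusted p = 0.274), as it did for knockout column 1 (1.25, adjusted p = 0.132) and knockout column 2 (0.91, adjusted p = 0.203).

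**Figure D3:**
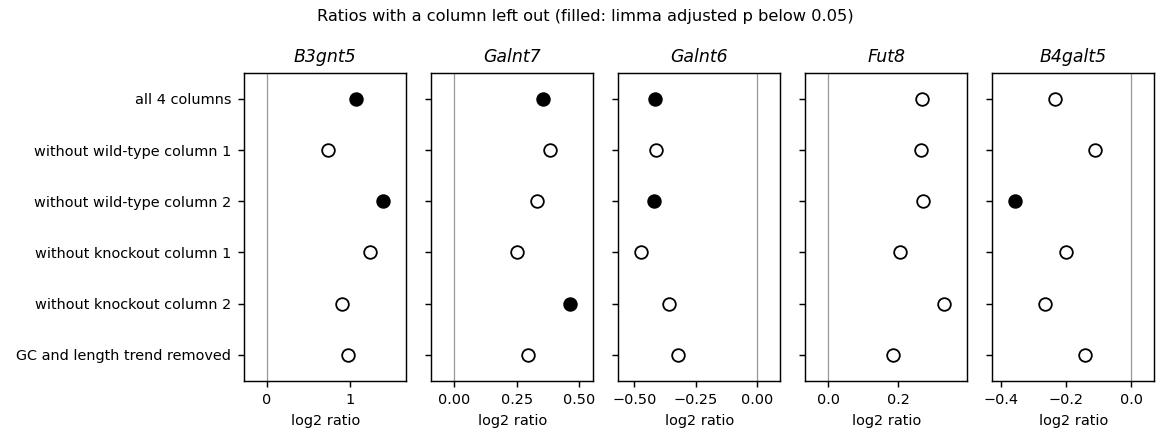
Log2 ratios, knockout minus wild type, of the 5 glycosyltransferases that limma or another test called in at least 1 setting, with all 4 columns, with each column left out and after removal of the GC and length trend; filled points have a limma adjusted p below 0.05. Every ratio shown keeps its sign, and no gene is called when wild-type column 1 or knockout column 1 is left out or when the trend is removed.

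Capping enzymes did not pass the test. Of 8 tested sialyltransferases and GalNAc caps, none was called by limma or edgeR, nor by DESeq2 among the 5 it gave an adjusted p, and 1, St3gal2, had an unadjusted limma p under 0.05. St3gal1, which sialylates O-glycan cores, was the most abundant per kilobase (3327 normalized counts) and stood at 19915 and 17236 normalized counts in the wild-type columns and 20385 and 19617 in the knockout columns, with overlap (log2 ratio 0.11, SE 0.08, limma adjusted p = 0.461). St3gal2, which caps glycolipids and O-glycans, stood at 1146 and 1105 normalized counts in the wild-type columns and 1019 and 881 in the knockout columns, below wild type in both knockout columns (log2 ratio -0.25, SE 0.11, limma adjusted p = 0.234). St3gal4, which takes part in making selectin ligands, stood at 519 and 815 normalized counts in the wild-type columns and 580.0 and 615 in the knockout columns. There the wild-type columns differed more from each other than from the knockout, and the log2 ratio was -0.12 (SE 0.17). St3gal3 (-0.08), St3gal6 (-0.06), St6gal1 (-0.09), the enzyme that makes the ligand of the Siglec Cd22, and the polysialyltransferase St8sia4 (-0.04) all had overlapping columns. B4galnt2, which makes the Sda antigen, stood at 109 and 66.5 normalized counts in the wild-type columns and 61.8 and 43.8 in the knockout columns and had a log2 ratio of -0.70 (SE 0.37; adjusted p = 0.322 by limma).

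DESeq2 gave none of the 4 tested Fut genes other than Fut8 an adjusted p. None of them was called by limma or edgeR, and 1 had an unadjusted limma p under 0.05. That gene, Fut11, stood at 729 and 668 normalized counts in the wild-type columns and 489 and 564 in the knockout columns, below wild type in both knockout columns (log2 ratio -0.41, SE 0.13, limma adjusted p = 0.113). Fut7, which completes sialyl Lewis x on selectin ligands, stood at 117 and 119 normalized counts in the wild-type columns and 117 and 144 in the knockout columns, with overlap and a ratio of 0.14. Fut4, which also makes Lewis x structures, stood at 48.7 and 56.6 normalized counts in the wild-type columns and 75.6 and 69.5 in the knockout columns, with the knockout above in both columns but few reads behind it (log2 ratio 0.46, SE 0.35, limma adjusted p = 0.506). Fut10 gave 22.7 and 33.9 normalized counts in the wild-type columns and 35.3 and 7.56 in the knockout columns, and its ratio of -0.71 had a standard error of 0.72. The enzymes that add both galactoses of the glycosaminoglycan linkage region were below wild type in every knockout column. B4galt7 stood at 2080.3 and 2034 normalized counts in the wild-type columns and 1832 and 1952 in the knockout columns (log2 ratio -0.12, SE 0.09, limma adjusted p = 0.474), and B3galt6 at 532 and 540.3 normalized counts in the wild-type columns and 488 and 505 in the knockout columns (log2 ratio -0.11, SE 0.13, limma adjusted p = 0.689). Neither was called by limma or edgeR and neither had an unadjusted p under 0.05. DESeq2 did not call B4galt7 and gave B3galt6 no adjusted p. The columns of the genotypes did not overlap in either gene, as in 51.1% of all genes tested.

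**Figure D4:**
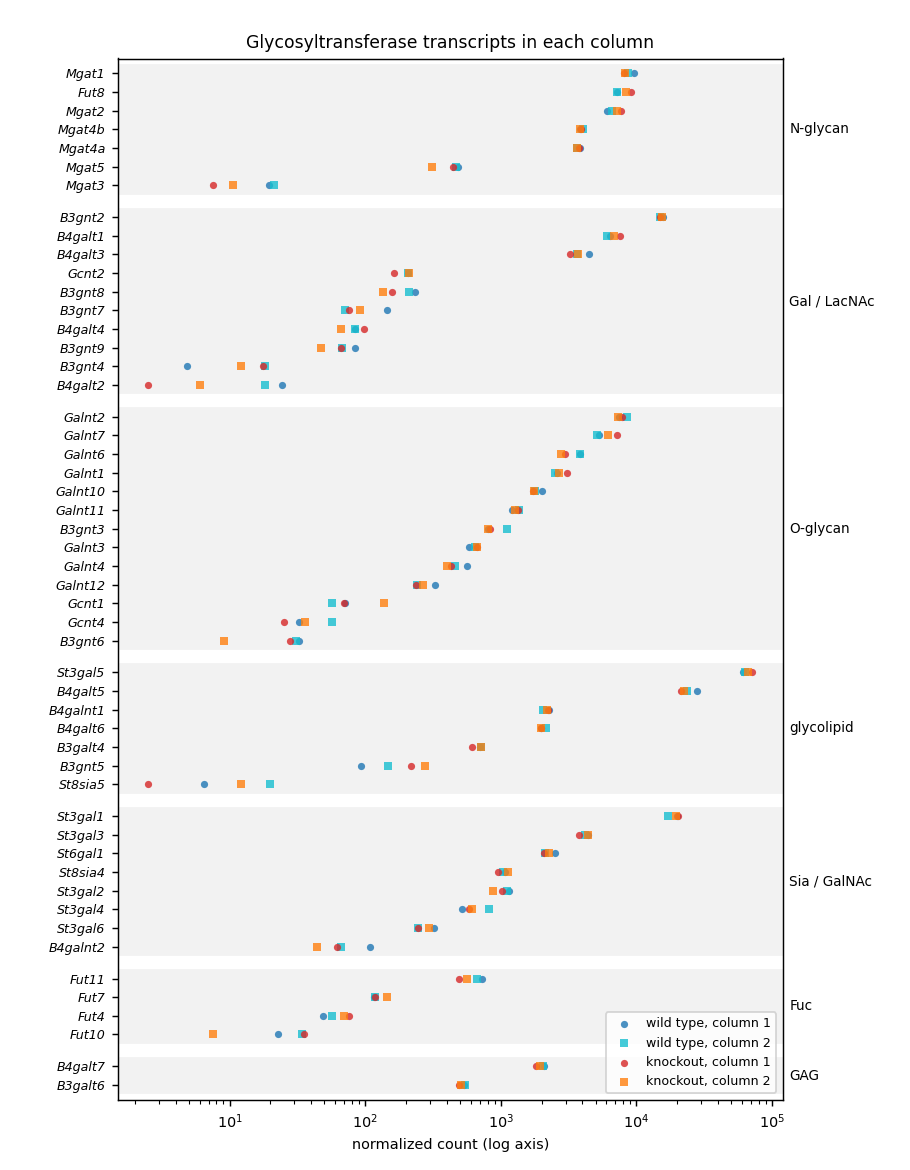
Normalized counts, on a log axis, of the 51 glycosyltransferases with a mean of at least 10, 1 point per column, grouped by kind of chain or step. Levels run from a mean of 10.2 for St8sia5 to 65781 for St3gal5, and for most genes the 4 columns lie close together.

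Levels varied far more between the genes than between the genotypes. Of the 51 members, 24 averaged at least 1000 normalized counts, 14 between 100 and 1000 and 13 between 10 and 100. The median absolute log2 ratio of the 47 tested was 0.16 between genotypes, beside 0.13 between the wild-type columns and 0.14 between the knockout columns. Over all genes tested the median absolute log2 ratio between genotypes was 0.14. In 21 of the 47 the wild-type columns were further apart than the genotype means, and in 22 the knockout columns were. A mean of 2 columns varies less than a single column, so these comparisons are not like for like. Of the 51, 19 share exon bases with another annotated gene, 2 of them (Galnt2 and B3gnt2) with a gene on the same strand, and their values are uncertain to that extent.

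Ratios went with transcript GC content. Across the 47 members Spearman's rho between log2 ratio and the GC content of the longest transcript was -0.34, and across 12726 genes with both values it was -0.31, a description over genes that share the same 4 columns. B3gnt5 (38.6% GC) and Galnt7 (42.3%) are poor in GC and Galnt6 (55.2%) is rich in it. With each column's GC and length trend removed, the log2 ratios were 0.99 for B3gnt5 (limma adjusted p = 0.101), 0.29 for Galnt7 (adjusted p = 0.0802) and -0.32 for Galnt6 (adjusted p = 0.0553). No member was then called, with 11 of the 47 at an unadjusted p under 0.05, as many as before; the share over all genes was then 15.5%.

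**Figure D5:**
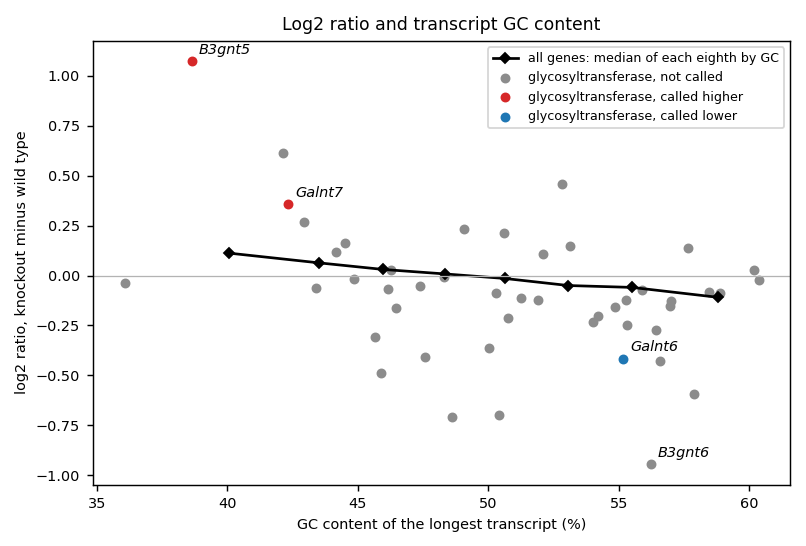
Log2 ratio, knockout minus wild type, against the GC content in percent of the longest transcript for the 47 tested glycosyltransferases (points), with the median ratio of all genes in eighths by GC content (line). The line falls from 0.11 to -0.11, and B3gnt5 and Galnt7 lie above it and Galnt6 below it.

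The rest of the glycan pathway was followed in 8 lists holding 181 further genes, of which 169 were tested. By limma 4 fell and none rose, which is 2.37% called, and edgeR gave the same counts. Over all genes tested limma called 2.91%, with 1.67% higher and 1.24% lower. An unadjusted limma p under 0.05 was found for 35 of the 169 (20.7%, beside 19.8% of all genes). DESeq2 called 3 higher and 4 lower among the 112 it gave an adjusted p, where over all genes it called 536 of 7132. Its 4 lower genes are not limma's 4, since it gave the lectins Mrc1 and Cd33 no adjusted p. Supply of sugar nucleotides (27 genes tested), nucleotide sugar and related transporters (14), the dolichol pathway with oligosaccharyltransferase (31), N-glycan trimming (11) and sialidases and glycosidases (15) had no call by limma or edgeR. In that order the lists had 7, 1, 6, 2 and 4 genes at an unadjusted p under 0.05 and 1, 0, 2, 0 and 1 called by DESeq2. Their median log2 ratios were 0.09, 0.05, 0.08, -0.01 and -0.03. Gfpt1, the entry enzyme of hexosamine synthesis, had a log2 ratio of 0.28 (SE 0.07; adjusted p = 0.0566 by limma) and was called by DESeq2 (adjusted p = 0.0154). Rpn1, a subunit of oligosaccharyltransferase, had a log2 ratio of 0.26 (SE 0.08; adjusted p = 0.0796 by limma) and a DESeq2 adjusted p of 0.0296, while the subunits Stt3a (0.21) and Rpn2 (-0.02) were called by none of the 3 tools. The abundant transporter genes Slc35a4 (0.03), Slc35b1 (0.20) and Tmem165 (0.08), the trimming enzymes Man2a1 (0.00124), Prkcsh (0.01) and Ganab (0.00102), the sugar genes Ugp2 (0.17) and Renbp (-0.13) and the lysosomal Man2b1 (-0.24), Gla (-0.02) and Hexa (0.04) did not pass either.

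The 4 called lower by limma stand in 3 lists, where 1.24% of all genes tested were called lower. Ggta1, which adds the alpha-galactose cap of mouse cells, was the 1 of 24 other glycosyltransferases called, at 11769 and 10781 normalized counts in the wild-type columns and 8143 and 9523 in the knockout columns (log2 ratio -0.36, SE 0.08, limma adjusted p = 0.0362). In that list Ogt had a ratio of -0.11 and Pofut2 of 0.11. Chst11, a chondroitin sulfotransferase, was the 1 of 31 glycosaminoglycan enzymes called, at 2718 and 2569.8 normalized counts in the wild-type columns and 1532 and 1816 in the knockout columns (log2 ratio -0.66, SE 0.10, limma adjusted p = 0.00537), while the abundant Xylt2 (-0.07), Chpf2 (-0.25; DESeq2 adjusted p = 0.0249) and Dse (0.05) were not called by limma. Among 16 glycan-binding lectins the mannose receptor Mrc1 (log2 ratio -0.79, SE 0.16, limma adjusted p = 0.0203) and the Siglec Cd33 fell, with Cd33 at 901 and 827 normalized counts in the wild-type columns and 493 and 656 in the knockout columns (log2 ratio -0.60, SE 0.14, limma adjusted p = 0.0404). The galectins Lgals3 (0.09), Lgals9 (0.09) and Lgals1 (0.03), the most abundant of these lectins, did not pass. Removing the GC and length trend left each of the 4 called. Each fell short of the limma threshold when wild-type column 1 was left out (limma adjusted p from 0.0725 to 0.268) and when knockout column 1 was (0.0755 to 0.432), and Cd33 also when wild-type column 2 was (0.0762).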

How the data were processed

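Directional messenger RNA libraries were made from activated macrophages, per the labels' protocols. The authors deposited 1 table of normalized counts, a signal per gene. Its values behave as counts of reads scaled by a factor per column, since 100% of values are whole multiples of a column's step within 0.01 reads, and 1 read was worth 1.26 to 1.62 normalized counts. Between 69.0% and 71.4% of counts from 1 to 50 reads were even, so mates of a fragment may have been counted apart and fragments may be fewer than reads. The build mm10 and StringTie are named, per the submitters' processing notes, without roles; for aligner, counter and normalization no name is given in the sources used here. The table had 17271 rows, and 1 that names no gene (at most 0.0366% of a column) was left out.

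Genotypes were compared by limma 3.58.1 (trended prior variance) on log2(normalized count + 1), over genes reaching 20 reads in any column (2 residual and 12.2 prior degrees of freedom), since the deposited values are not counts. As alternatives the recovered reads were tested with the quasi-likelihood method of edgeR 4.0.16 and with DESeq2 1.42.0; edgeR called 379 genes and limma 375. Further alternatives were a pseudocount of 0.1, TMM scaling, centring, other filters, subtraction of a trend in GC content and length from every column (robust splines on genes averaging at least 100), blocking on column number, and omission of single columns, whose partner was then assumed to vary like the other genotype. Exon lengths and GC content came from GENCODE M21, positions and upstream sequences from RefSeq GRCm38.p6, the build of mm10; all 63 members matched. Named genes were the members with a mean of at least 10, and in each pathway list the 3 most abundant and up to 3 called. The members, roles and lists were chosen with earlier results of these data known. The result of 1 marker gene is not reported here. The fit was checked on simulated data. Software was Python 3.11.15 with pandas 2.3.3, matplotlib 3.10.9 and scipy 1.17.1, and R 4.3.3.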

Additional observations from a re-analysis of the deposited data

How the results depend on the processing

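By limma 3 glycosyltransferases, 4 other glycan pathway genes and 375 of all genes were called. With each column left out in turn these counts ran from 0 to 3, from 0 to 10 and from 21 to 620. The lowest of each came without wild-type column 1 or knockout column 1. After subtraction of the GC and length trend the counts were 0, 4 and 152 (78 higher and 74 lower over all genes), without a filter 2, 2 and 222, and with DESeq2 3, 7 and 536. A block on the column number gave 4, 8 and 602 calls, Fut8 being the added glycosyltransferase (limma adjusted p = 0.0407). Deviations of same-numbered columns from their genotype means correlated at -0.0342. No deviation shared by same-numbered columns was thus seen, but whether those columns were paired is not stated. The 24 glycosyltransferases whose genotypes did not overlap became 32 to 38 with 1 column left out, where a lone column has less to overlap with. The share over all genes in those fits is not given, so these counts say nothing about the members in particular. B3gnt5 was not called without a filter (limma adjusted p = 0.0678) or with at least 100 reads (0.054), and kept its call with a pseudocount of 0.1, TMM scaling, centring and edgeR. Over 14 settings no called member changed sign, 42 of the 47 were called in none, and 20 uncalled members changed sign in at least 1. The causes were not tested. Depth limits the scarce members: below about 100 normalized counts standard errors exceeded those of abundant genes several-fold, and DESeq2 gave 24 of the 47 an adjusted p.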

Other observations

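Of the 16 glycosyltransferases under 20 reads in every column, 4 averaged at least 10 normalized counts. B4galt2, a galactosyltransferase, had 15 and 13 reads in wild type and 2 and 4 in the knockout. Mgat3, which adds the bisecting N-acetylglucosamine, had 12 and 15 reads in wild type and 6 and 7 in the knockout. In both genes the knockout columns lay below the wild-type columns, but neither was tested and the numbers of reads are small. B3gnt4 had 3 and 13 reads in wild type and 14 and 8 in the knockout, and St8sia5 had 4 and 14 reads in wild type and 2 and 8 in the knockout, with overlap in both. The other 12 members had at most 10 reads in any column, among them St8sia1, the GD3 synthase, with 6 and 4 reads in wild type and 4 and 0 in the knockout, and Mgat5b, Galnt9, Galnt15, Galnt16, Galnt18, Fut2, St8sia6, B3galt2, B3galt5, B4galnt4 and Gcnt7.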
